A study of Mus musculus with 8 samples.

Results

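The chromatin at 10 genes of NAD metabolism was examined in mouse gastrocnemius, a calf muscle: Nampt, Nmnat1, Nmnat3, Nmrk2, Sirt1, Sirt3, Sirt6, Parp1, Cd38 and Nnt. All regions of the deposited table that carry one of these gene names were taken, 171 of 489637 regions and 10 of 27552 gene names. ATAC-seq, in which a transposase cuts and tags open DNA, gave 4 vehicle libraries and 4 libraries of mice that had received tamoxifen and are labelled iMSBmal1KO. All mice were 6 months old and had the genotype Cre+:iMSBmal1 fl/fl, so the controls carried the floxed Bmal1 gene and the Cre as well and lacked only the tamoxifen. The effects of tamoxifen itself and of the loss of Bmal1 cannot be told apart. Bmal1 (Arntl in the table) encodes a transcription factor that forms the positive arm of the circadian clock. The promoter that drives the Cre is not given in the sources used here. Each preparation used 2 whole muscles, per the labels, so nuclei of cells other than muscle fibres could be in the samples too.

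NAD carries electrons in metabolism and is also consumed as a substrate by signalling enzymes, so cells have to rebuild it. The salvage route starts from nicotinamide: NAMPT makes nicotinamide mononucleotide (NMN) in the rate-limiting step, and the NMNAT enzymes turn NMN into NAD, NMNAT1 in the nucleus and NMNAT3 in mitochondria. NMRK2 is a nicotinamide riboside kinase that feeds the same route and is characteristic of striated muscle. Sirtuins remove acyl groups from proteins at the cost of NAD, SIRT1 and SIRT6 in the nucleus and SIRT3 in mitochondria. PARP1 spends NAD on poly-ADP-ribose chains at damaged DNA, and CD38 hydrolyses NAD at membranes. NNT is the mitochondrial transhydrogenase that moves electrons from NADH to NADP. Nampt is known as a gene that the clock activates through E-boxes, the sites CACGTG that CLOCK and BMAL1 bind, and SIRT1 is known to act back on the clock.

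To show which of these sites lie at the starts of the genes, the RefSeq promoter windows (mouse build GRCm38.p6, 250 bases before to 50 after a start) were searched on both strands for CACGTG, for the variant CACGTT, which reads AACGTG on the other strand, and for AGGTCA, the core of many nuclear receptor sites, which reads TGACCT on the other strand. 12 windows matched 9 of the genes by symbol. CACGTG was found in 2 of the 12 windows and in 7.15% of all 32851 windows, CACGTT in 0 of the 12 and in 4.68% of all, and AGGTCA in 2 of the 12 and in 16.3% of all. A match is only a run of letters, not a shown binding site. The matches of the members are printed 5′ to 3′ on the strand of the gene, with the motif in capitals and its first base counted from the start of transcription. The 2 Sirt1 sites lie on chromosome 10, minus strand, at 63339145 to 63339150 and 63339073 to 63339078. The Parp1 site lies on chromosome 1, plus strand, at 180568842 to 180568847, the Nampt site on chromosome 12, plus strand, at 32820184 to 32820189, and the Nmnat3 site on chromosome 9, plus strand, at 98296593 to 98296598.
Sirt1, E-box at -115: gcggcgcccggcCACGTGacccggcgtgtt
Sirt1, E-box at -43: ggaggggcgggtCACGTGacggggtttaaa
Parp1, E-box at -49: acctcccaaggaCACGTGctgaagccccgc
Nampt, AGGTCA at -151: aggcaggcgcccAGGTCAcgcgctggggtg
Nmnat3, AGGTCA at 24: gctgggagcgcaAGGTCAagttcactcgcg

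Each of these 5 sites lay inside a deposited region, so accessibility was measured at all of them. Each of the 250-base promoters shown next, of Nampt, Sirt1 and Nmnat3, is given because its region is described in the results. They span 32820085 to 32820334 of chromosome 12 (plus strand), 63339036 to 63339285 of chromosome 10 (minus strand) and 98296320 to 98296569 of chromosome 9 (plus strand), all in GRCm38.p6. Capitals mark the motifs listed above. The Nampt stretch held no CACGTG, which says only that these letters are not in this window.
Nampt promoter: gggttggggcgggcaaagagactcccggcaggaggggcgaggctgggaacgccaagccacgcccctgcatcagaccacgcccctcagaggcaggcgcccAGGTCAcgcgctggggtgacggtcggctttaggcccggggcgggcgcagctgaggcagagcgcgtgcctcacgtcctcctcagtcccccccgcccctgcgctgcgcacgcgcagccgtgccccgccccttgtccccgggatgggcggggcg
Sirt1 promoter: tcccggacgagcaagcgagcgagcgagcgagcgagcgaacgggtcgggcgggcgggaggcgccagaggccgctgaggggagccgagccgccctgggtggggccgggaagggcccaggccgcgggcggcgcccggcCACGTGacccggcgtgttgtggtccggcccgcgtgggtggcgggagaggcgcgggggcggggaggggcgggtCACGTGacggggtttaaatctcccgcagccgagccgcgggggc
Nmnat3 promoter: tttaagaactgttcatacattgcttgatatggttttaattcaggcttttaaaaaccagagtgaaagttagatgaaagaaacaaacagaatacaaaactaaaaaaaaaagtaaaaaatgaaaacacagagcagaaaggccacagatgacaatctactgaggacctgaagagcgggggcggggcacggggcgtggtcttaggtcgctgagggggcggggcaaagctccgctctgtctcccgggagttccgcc

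The deposited values were a signal per region, which behaved as read counts divided by 1 constant per library. Depth ran from 4.31 M to 29.5 M read equivalents per library, lowest in vehicle replicate 4. That library stood apart: its log2 signal correlated with the other libraries at r of 0.80 to 0.85 across regions, against maxima of 0.92 to 0.94 for the others, and 16.5% of its reads were mitochondrial against 1.11% to 5.51%. Where leaving it out turned a described value or moved it by over 1.5 times, the value without it is given too. At Arntl itself the summed signal of 82 regions was 2688, 2248, 2557 and 1942 in vehicle and 3023, 3421, 3154 and 3315 in iMSBmal1KO, with a log2 change of 0.46 ± 0.14 (SE, with an adjusted p of 0.374 by limma). Signal in these regions does not show whether the floxed exon was lost, so it does not check the labels. The highest start signals of the marker genes were those of muscle fibre genes such as Acta1, Ckm and Mylpf. Not all fibre genes were high. Myh4 and Myh1 averaged 158 and 55.9 in vehicle, below the 373 of the satellite cell marker Cdh15. The slow and oxidative fibre genes Myh7 and Myh2 had almost none. Over the list of 11 fibre genes the summed signal within 1000 bp of starts was 11897 to 19356 in vehicle and 14306 to 17621 in iMSBmal1KO.

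Across the genome 124901 regions had enough signal to be tested, and 110 of them (0.0881%) passed a threshold of 0.05 on the p adjusted over all tested regions (Benjamini-Hochberg, limma). Of the 171 regions of the NAD genes, 54 could be tested and 0 passed that threshold. The smallest adjusted p among them was 0.281. An unadjusted p under 0.05 was found at 12 of the 54, all higher in iMSBmal1KO, where the background was 6.59% of all tested regions higher and 2.63% lower. The split moved with the scaling: with factors from the trimmed mean of M values 8 of the 54 were higher and 2 lower, against 4.87% and 4.9% of all tested regions. Without vehicle replicate 4 it was 6 higher and 0 lower, against 4.43% and 3.4%. There were 5 higher without iMSBmal1KO replicate 2 (3.5% of all) and 7 higher without iMSBmal1KO replicate 1 (4.57%), with 0 lower in both, and 6 higher and 1 lower after scaling to total reads (4.55% and 3.17%). At 5 of the 54 regions every iMSBmal1KO value lay above every vehicle value, against a background of 3.62%, and at 0 every value lay below, against 1.87%. The 5 were 3 regions of Nmnat3, 1 of Sirt1 and 1 of Nnt. Among the 117 regions too weak to be tested the groups were apart at 4, with iMSBmal1KO higher at 1 region of Nmnat3 and 1 of Nnt (1.4% of all untested regions) and lower at 1 of Nnt and 1 of Sirt3 (1.69%). The median log2 change was 0.25 over the 54 regions and 0.12 over all tested regions, and 43 of the 54 changes were positive, against 62% of all tested regions. Without vehicle replicate 4, 37 of the 54 were positive, against 54.3% of all. Without it these medians were 0.17 and 0.04, and with factors from the trimmed mean of M values 0.13 and 0.01. Log2 changes are iMSBmal1KO over vehicle on the log2(signal + 1) scale, which understates changes of weak regions.

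By the position the table gives, 58 of the 171 regions were intronic, 40 at transcription starts, 36 in parts listed as 5′ UTR exon, 16 at transcript ends, 15 in coding exons and 6 in parts listed as 3′ UTR exon. The start regions held 73.1% of the signal of the members. Among the tested regions, 16 of 23 at starts had a positive change, as did 10 of 10 in introns, 10 of 10 in 5′ UTR parts and 6 of 9 in coding exons. The median change was 0.20 at starts, 0.38 in introns, 0.49 in 5′ UTR parts and 0.10 in coding exons. Over all tested regions of the same sections the medians were 0.17, 0.10, 0.08 and 0.06. Without vehicle replicate 4 the medians of the NAD genes were 0.08, 0.30, 0.43 and -0.09, with 14, 9, 9 and 4 positive changes, in the same order of sections. Of the 10 tested regions in 5′ UTR parts 8 belong to Nmnat3, and of the 10 in introns 5 belong to Nampt, so sections and genes are not independent. In addition 43.9% of the 171 regions abutted another region and neighbours share reads of the same open stretch.

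**Figure D1:**
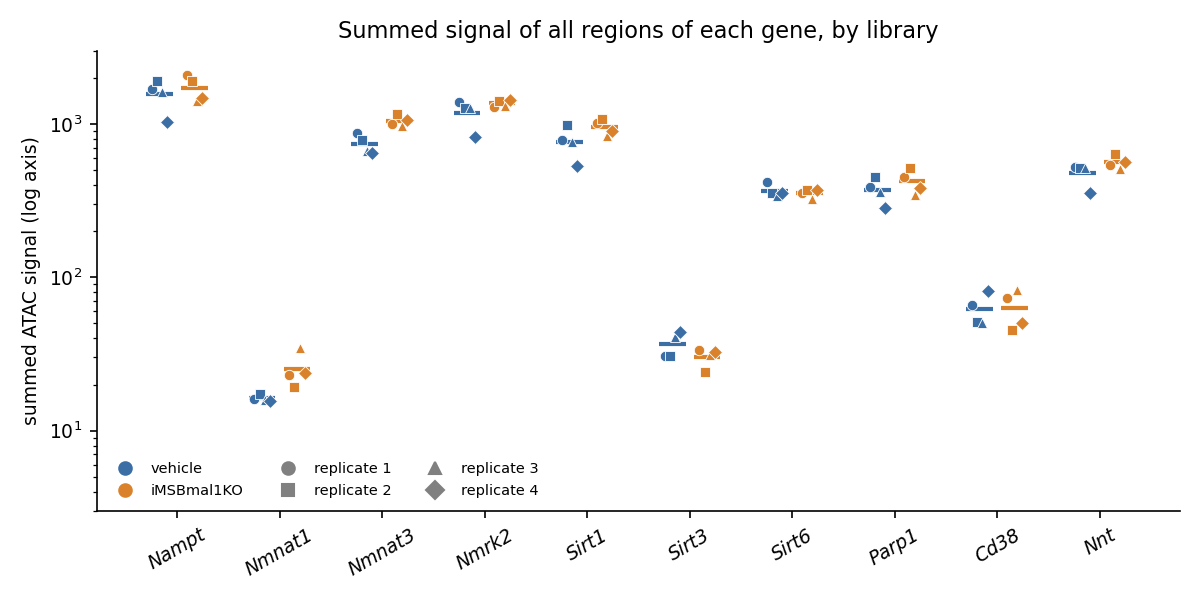
Summed ATAC signal of all regions listed under each gene (log axis), with 1 point per library, the marker shape giving the replicate and the short bar the mean of 4 libraries. At Nmnat3 and Nmnat1 all 4 iMSBmal1KO sums sit above all 4 vehicle sums, as at 3.69% of all gene sums tested, while at the other 8 genes the groups overlap. The Nmnat1 sum holds only weak regions.

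The summed signal of all regions of a gene was fitted over 22224 genes, of which 29 (0.13%) passed an adjusted p under 0.05 (limma). 0 of the 10 NAD genes did, by limma or by limma-voom. An unadjusted p under 0.05 was found at 1 of the 10, Nmnat3, which was higher in iMSBmal1KO, and the same number had one by limma-voom. The background was 7.61% of genes higher and 1.86% lower at that unadjusted p. All iMSBmal1KO sums lay above all vehicle sums at 2 of the 10 genes (3.69% of all genes tested) and below at 0 (1.24%). Within 1000 bp of transcription starts 14 of 17720 genes passed (0.079%). Of the 9 NAD genes testable there 0 passed, and 2 had an unadjusted p under 0.05 (Nmnat3 and Nnt, both higher), with a background of 8.67% higher and 1.43% lower. Over the other settings this count ran from 0, without vehicle replicate 3 or iMSBmal1KO replicate 2, to 3, as by limma-voom. It was 1 without vehicle replicate 4. At the starts the groups were apart with iMSBmal1KO higher at Nmnat1 alone of the 9 (3.49% of all genes tested) and lower at 0 (0.999%). That Nmnat1 sum holds only weak regions upstream of the start. The strong region over the start itself is listed under Lzic, and its groups overlapped.

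**Figure D2:**
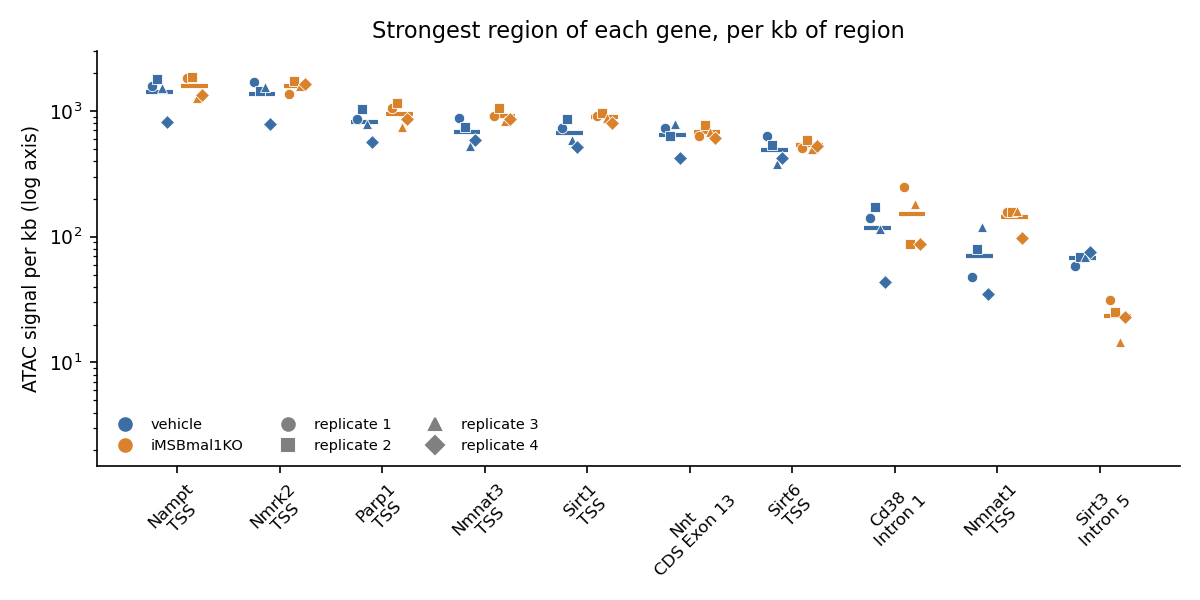
ATAC signal per kb of region (log axis) at the region with the most total signal under each gene name, ordered by the mean of all 8 libraries and labelled with the section in the table. 7 genes have a strongest region between 509.9 and 1495 on average, and Cd38, Nmnat1 and Sirt3 have 135 or less, where the starts of Nmnat1 and Sirt3 are not included because they are listed under other genes. The Sirt1 region shown lies inside the RefSeq bounds of the neighbour Dnajc12, not at the RefSeq start of Sirt1.

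Levels were compared between genes as signal per kb, as means over the 8 libraries, at the region with the most total signal under each gene name. Nampt had 1495 ± 347 per kb and Nmrk2 1469 ± 307 (SD, n = 8 libraries). Nampt was the higher of this pair in 4 of 8 libraries, so the pair does not differ beyond its spread. Parp1 followed with 882 ± 192, Nmnat3 with 799 ± 175 and Sirt1 with 779 ± 159 per kb (SD, n = 8). Nmrk2 was above Parp1 in 8 of 8 libraries. Parp1 exceeded Nmnat3 in 4 of 8 and Nmnat3 exceeded Sirt1 in 4 of 8, so neither pair differed beyond its spread, while Parp1 exceeded Sirt1 in 7 of 8. The Sirt1 region ranked here is not at the RefSeq start of Sirt1 and lies inside the RefSeq bounds of the neighbour Dnajc12. The order depends on this choice of region: a shorter region at the RefSeq start of Sirt1, 63339096 to 63339179, had 1179 per kb, which is above the value of Parp1. Nnt had 657 ± 115 inside the gene body, and Sirt6 509.9 ± 80.0 at its start (SD, n = 8). Sirt1 was above Nnt in 7 of 8 libraries, and Nnt above Sirt6 in 8 of 8. Far below were Cd38 with 135 ± 65.6, Nmnat1 with 107 ± 50.1 and Sirt3 with 45.7 ± 24.7 per kb. Sirt6 was above Cd38 in 8 of 8 libraries, Cd38 above Nmnat1 in 5 of 8 and Nmnat1 above Sirt3 in 6 of 8. The low places of Nmnat1 and Sirt3 hold for the regions listed under their names. The regions over their starts are listed under Lzic and Psmd13 and had 461 ± 72.8 and 575 ± 120.2 per kb (SD, n = 8). In terms of total signal the strongest region of Nampt exceeded that of 97.8% of the genes in the table.

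Nampt, which encodes the rate-limiting salvage enzyme, was listed with 35 regions on chromosome 12, of which 10 were tested. Its start region, 32819808 to 32820611, held 73.2% of the signal of the gene. The signal there was 1256, 1438, 1211 and 659.7 in vehicle, in the order of the replicate numbers as throughout, and 1455, 1485, 1021 and 1080 in iMSBmal1KO. The groups overlapped, and the vehicle library with the low value was replicate 4. Its log2 change was 0.18 ± 0.22 (SE, with an adjusted p of 0.794 by limma) and turned to -0.06 without vehicle replicate 4. The sum over all Nampt regions averaged 1563 ± 373 in vehicle against 1718 ± 322 in iMSBmal1KO (SD, n = 4 each), giving a log2 change of 0.15 ± 0.18 (SE, with an adjusted p of 0.763 by limma), or -0.03 without vehicle replicate 4. At the start of Nampt the difference was smaller than the spread between libraries.

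Inside Nampt 2 weak regions of the 10 tested had an unadjusted p under 0.05, both higher in iMSBmal1KO. Of all tested regions 6.59% were higher at that p. In intron 8, at 32844311 to 32844431, the signal was 17.1, 12.3, 13.3 and 3.13 in vehicle and 28.7, 18.4, 32.2 and 15.1 in iMSBmal1KO. The groups overlapped at their edges, and this rested on 1 to 67 reads per library. This gave a log2 change of 1.11 ± 0.43 (SE, with an adjusted p of 0.492 by limma), or 0.64 without vehicle replicate 4. The other such region, 32835377 to 32835516, is listed as 3′ UTR exon and averaged 6.35 in vehicle and 13.6 in iMSBmal1KO, from 1 to 45 reads per library. Among 22223 other genes, the profile of summed signal over the 8 libraries was most like that of Nampt at Usp42 (Pearson r of 0.996), Bcl7b (0.996) and Specc1l (0.988). These are the highest of very many comparisons over 8 libraries that share depth and library quality, so they are given as a description only.

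Nmnat1, the nuclear NAD-forming enzyme, was listed with only 4 weak regions on chromosome 4. All except the one in intron 3 lie inside the RefSeq bounds of the neighbour Lzic, the only tested region among them. The sum of the 4 regions was 16.0, 17.5, 15.9 and 15.6 in vehicle and 23.1, 19.2, 34.6 and 23.8 in iMSBmal1KO. Every iMSBmal1KO value lay above every vehicle value, as it did for 3.69% of all gene sums tested. In vehicle replicate 4 each of these regions held only 0 to 4 reads. On the log2 scale the change was 0.57 ± 0.30 (SE, with an adjusted p of 0.543 by limma). The only tested region, 149486003 to 149486093, held 1 to 33 reads per library, and its groups overlapped at their edge (3.13 to 10.8 in vehicle, 8.78 to 14.3 in iMSBmal1KO).

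The name Nmnat1 did not cover the start of the gene. The strong region over that start, 149484824 to 149485599, was listed under the neighbour Lzic, which begins there in the opposite direction. It had 371, 390, 306 and 244 in vehicle and 371, 424, 386 and 364 in iMSBmal1KO. The groups overlapped, with a log2 change of 0.26 ± 0.20 (SE, with an adjusted p of 0.667 by limma), or 0.12 without vehicle replicate 4. A shared start region does not show which of the 2 genes it serves.

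Nmnat3, which encodes the mitochondrial NMN adenylyltransferase, had 40 regions on chromosome 9, of which 10 were tested, and all 10 had a positive log2 change. Their median was 0.49, and 6 of them had an unadjusted p under 0.05 (limma). Of all tested regions 62% had a positive change, and 6.59% were higher at that unadjusted p. Some of the 10 regions abut, so they are not independent. The summed signal was 873, 788, 665 and 650.4 in vehicle and 998, 1167, 963 and 1060 in iMSBmal1KO. Every iMSBmal1KO library was above every vehicle library, as at 3.69% of all gene sums tested. The sum averaged 744 ± 106 in vehicle against 1047 ± 89.8 in iMSBmal1KO (SD, n = 4 each), giving a log2 change of 0.50 ± 0.15 (SE), or 0.39 relative to the median of all gene sums. Adjusted over all genes the p was 0.376 by limma, from 0.0989 to 0.933 over the other settings, so the gene did not pass. The log2 change was 0.44 without vehicle replicate 4, and it lay between 0.38 and 0.58 in all 18 other settings tried.

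**Figure D3:**
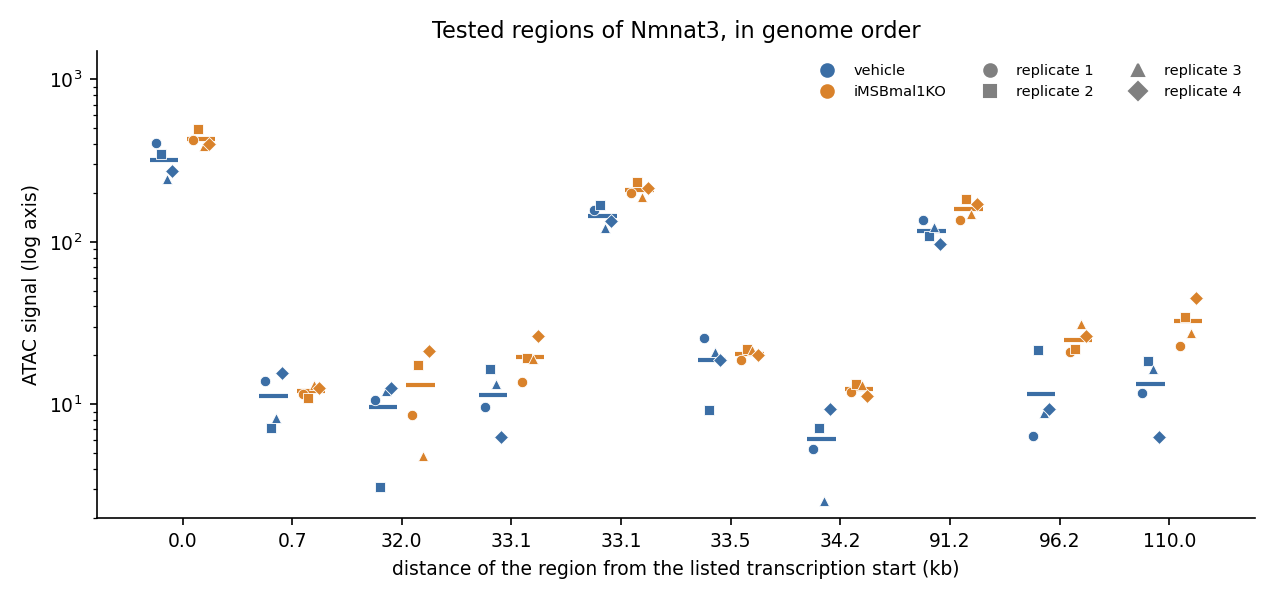
ATAC signal (log axis) at the 10 tested regions of Nmnat3, in genome order and labelled with the distance from the listed transcription start in kb, with 1 point per library and a bar for the mean of 4. The mean of iMSBmal1KO is above that of vehicle at each region, and at 3 of them the groups do not overlap. Over all tested regions, 3.62% had every iMSBmal1KO value above every vehicle value.

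The start region of Nmnat3, 98296551 to 98297017, had 406, 348, 245 and 272 in vehicle and 422, 494, 389 and 403 in iMSBmal1KO. Only vehicle replicate 1 reached into the range of iMSBmal1KO. Its log2 change was 0.45 ± 0.20 (SE, with an adjusted p of 0.528 by limma). The AGGTCA motif printed above lies in this region. The region 33137 bp from the start, 98329741 to 98330059, had 157, 167, 122 and 134 in vehicle and 199, 235, 188 and 215 in iMSBmal1KO. Here the groups did not overlap. This gave a log2 change of 0.53 ± 0.20 (SE, with an adjusted p of 0.487 by limma).

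The smallest p of all 54 regions fell in intron 4 of Nmnat3, at 98406644 to 98406810. Its signal was 11.7, 18.5, 16.5 and 6.25 in vehicle and 22.7, 34.3, 27.4 and 45.2 in iMSBmal1KO. The groups did not overlap, and the libraries held 2 to 53 reads there. On the log2 scale the change was 1.28 ± 0.35 (SE, with an adjusted p of 0.281 by limma). The third region without overlap, 98330853 to 98331027, was weak, with means of 6.11 ± 2.90 in vehicle against 12.4 ± 0.979 in iMSBmal1KO (SD, n = 4 each). It held 3 to 28 reads per library. In 17 of 18 other settings all tested Nmnat3 regions had a positive change, and without vehicle replicate 2 it was 7 of 10.

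Nmrk2, the muscle nicotinamide riboside kinase, had 8 regions in 2845 bp of chromosome 10, and all 8 were tested. Its start region, 81201935 to 81202280, had 583, 494, 534 and 269 in vehicle and 466, 600.4, 544 and 563 in iMSBmal1KO. The groups overlapped, and vehicle replicate 4 was the low library. The log2 change was 0.26 ± 0.22 (SE, with an adjusted p of 0.698 by limma), or 0.01 without vehicle replicate 4. Of the 8 regions the smallest p fell just upstream, at 81202290 to 81202432, with 130.04, 174, 181 and 62.5 in vehicle and 192, 192, 159 and 167 in iMSBmal1KO. These groups overlapped too, with a log2 change of 0.48 ± 0.28 (SE, with an adjusted p of 0.589 by limma), or 0.14 without vehicle replicate 4. The sum of the 8 regions averaged 1186 ± 252 in vehicle against 1360 ± 67.7 in iMSBmal1KO (SD, n = 4 each), giving a log2 change of 0.23 ± 0.16 (SE, with an adjusted p of 0.619 by limma), or 0.06 without vehicle replicate 4.

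The open stretch of Nmrk2 ran through the gene body, in 5 regions at coding exons. Between them the table listed 9 further regions under Atcayos, an antisense transcript that spans the gene. With these 9 included, the 17 regions between 81200004 and 81202849 summed to 1545 ± 330.2 in vehicle against 1733 ± 66.9 in iMSBmal1KO (SD, n = 4 each). ATAC-seq has no strand, so this signal cannot be divided between the 2 genes.

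Sirt1, the nuclear deacetylase, had 22 regions on chromosome 10, of which 11 were tested and 10 had a positive change, or 7 without vehicle replicate 4. The summed signal was 780, 983, 762 and 532 in vehicle and 1012, 1070, 833 and 896 in iMSBmal1KO. Vehicle replicate 2 lay within the range of iMSBmal1KO, and vehicle replicate 4 lay lowest. Its log2 change was 0.34 ± 0.17 (SE, with an adjusted p of 0.538 by limma) and 0.18 without vehicle replicate 4. The 2 E-boxes printed above lie in separate regions. The one at -43 lies in 63338971 to 63339096, which had 69.3, 117, 98.5 and 28.1 in vehicle and 134, 149, 96.6 and 119 in iMSBmal1KO. These groups overlapped, with a log2 change of 0.82 ± 0.35 (SE, with an adjusted p of 0.518 by limma), or 0.40 without vehicle replicate 4.

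The E-box at -115 lies in 63339096 to 63339179, with 83.1, 119, 106 and 21.9 in vehicle and 146, 138, 58.4 and 109 in iMSBmal1KO. There the overlap was wide, and the log2 change was 0.61 ± 0.52 (SE, with an adjusted p of 0.709 by limma). Vehicle replicate 4 was the low library, and without it the change was 0.07. Without overlap was a weak region that the table lists in coding exon 6 and that lies 198 bp from the RefSeq start, 63338744 to 63338838, with 8.53, 9.25, 14.0 and 6.25 in vehicle and 18.4, 15.1, 19.1 and 17.6 in iMSBmal1KO. It held 2 to 43 reads per library, and its log2 change was 0.86 ± 0.35 (SE, with an adjusted p of 0.503 by limma). The Sirt1 region with the most signal, 63382702 to 63383072, is placed at -997 bp from another listed start, which lies upstream of the RefSeq start. This region is inside the RefSeq bounds of the neighbour Dnajc12, 259 bp from its lower bound. It held 33.6% of the signal listed under Sirt1, so the Sirt1 sum includes it. It had 272, 316, 215 and 191 in vehicle and 336, 357, 323 and 296 in iMSBmal1KO, so only vehicle replicate 2 reached into the other group. Its log2 change was 0.42 ± 0.20 (SE, with an adjusted p of 0.542 by limma).

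**Figure D4:**
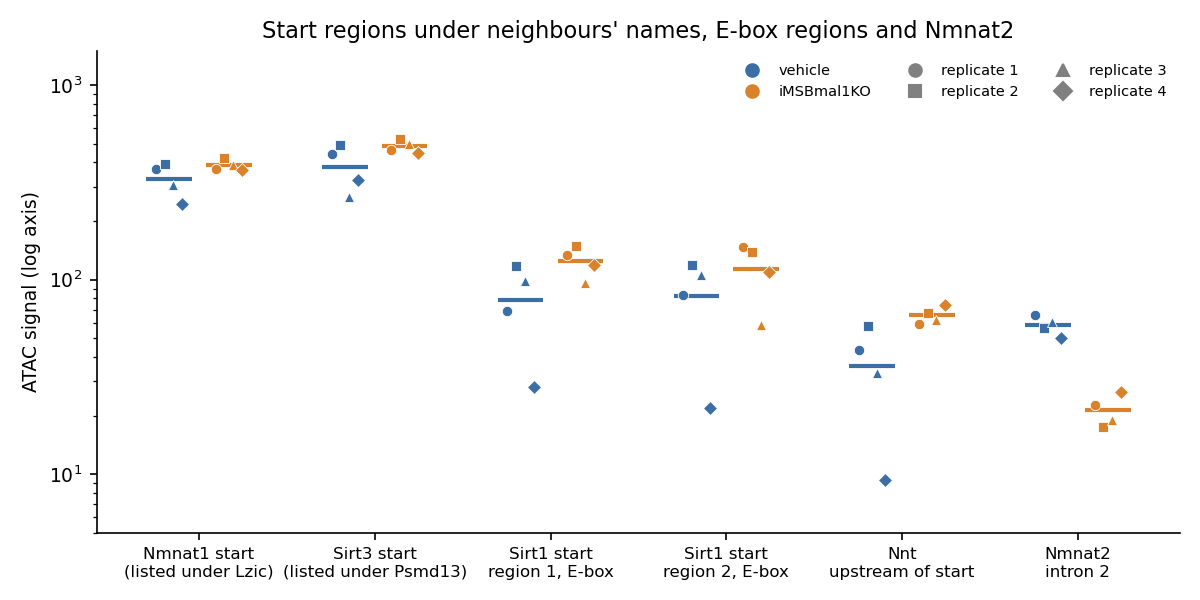
ATAC signal (log axis) at the shared starts of Nmnat1 and Sirt3, the 2 Sirt1 regions with an E-box (region 1 starts at 63338971, region 2 at 63339096), a region upstream of Nnt and the Nmnat2 intron region, with 1 point per library and a bar for the mean of 4. The 2 groups are apart at Nnt and Nmnat2, and vehicle replicate 4 is the lowest library at both Sirt1 regions and at Nnt.

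Sirt3, the mitochondrial deacetylase, had 8 weak regions on chromosome 7, and none had enough signal to be tested alone. Their sum averaged 36.5 ± 6.68 in vehicle against 30.4 ± 4.27 in iMSBmal1KO (SD, n = 4 each), giving a log2 change of -0.25 ± 0.25 (SE, with an adjusted p of 0.714 by limma), or -0.16 without vehicle replicate 4. In intron 5, at 140869219 to 140869384, the signal was 9.59, 11.3, 11.4 and 12.5 in vehicle and 5.14, 4.18, 2.39 and 3.76 in iMSBmal1KO. The groups did not overlap, but this came from 2 to 18 reads per library, and in the fit without a filter the adjusted p was 0.630 (limma). As at Nmnat1, the start of Sirt3 was covered by a region listed under its neighbour, Psmd13, at 140881885 to 140882636. It had 443, 490.1, 265 and 325 in vehicle and 461, 525, 499 and 448 in iMSBmal1KO. The groups overlapped, with a log2 change of 0.38 ± 0.21 (SE, with an adjusted p of 0.571 by limma).

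Sirt6, a chromatin deacylase, had 12 regions on chromosome 10, all within 1000 bp of a listed start. The sum was 418, 354, 340 and 356 in vehicle and 356, 373, 322 and 373 in iMSBmal1KO. The groups overlapped, and their means, 367 ± 34.6 and 356 ± 23.9 (SD, n = 4 each), gave a log2 change of -0.04 ± 0.15 (SE, with an adjusted p of 0.933 by limma). The sign of this value turned in 2 of 18 other settings. The region with the most signal, 81627326 to 81627814, had 306, 259, 184 and 206 in vehicle and 249, 284, 245 and 257 in iMSBmal1KO. Its groups overlapped, and its log2 change of 0.14 ± 0.20 (SE, with an adjusted p of 0.831 by limma) turned sign with cyclic loess and was 0.08 without vehicle replicate 4. The 4 other tested regions had a negative change, and the one with the smallest p, 81628531 to 81628654, had 44.8, 33.9, 41.3 and 59.4 in vehicle and 32.1, 25.9, 22.7 and 38.9 in iMSBmal1KO. The groups overlapped, with a log2 change of -0.57 ± 0.28 (SE, with an adjusted p of 0.549 by limma). That region covers a RefSeq start of the neighbour Ankrd24. All 4 tested regions with a negative change lie inside the RefSeq bounds of Ankrd24, and the region with the most signal lies outside them.

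**Figure D5:**
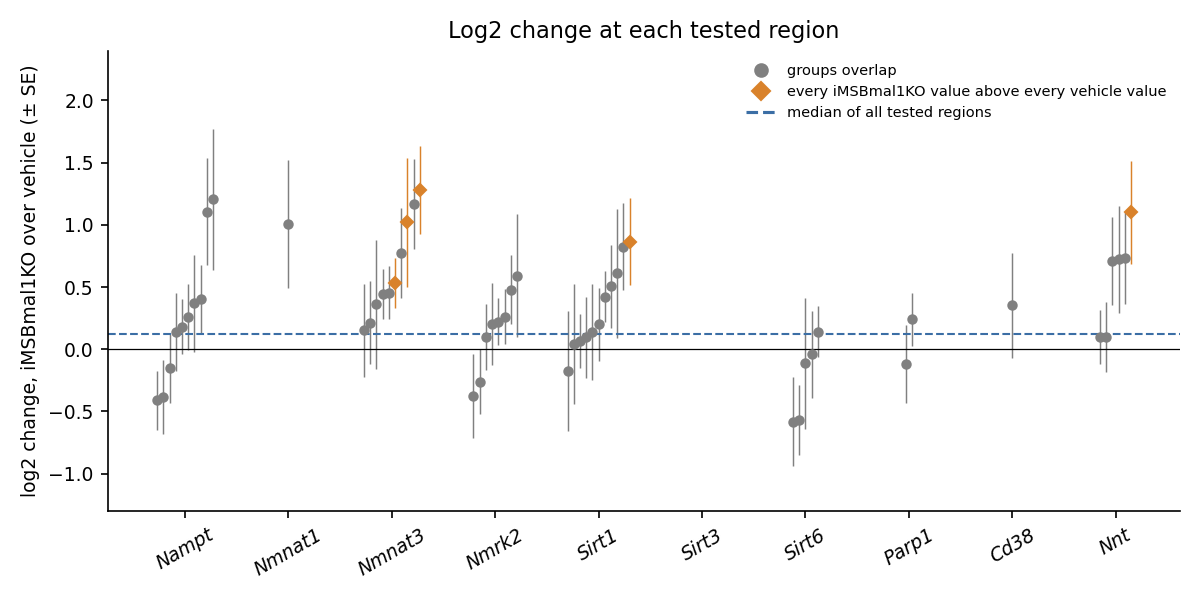
Log2 change (iMSBmal1KO over vehicle) with its SE at each of the 54 tested regions, by gene and sorted within each gene. The 5 diamonds are the regions without overlap of the groups, in Nmnat3, Sirt1 and Nnt, and the dashed line is the median of all tested regions, 0.12. Such a gain without overlap was found at 3.62% of all tested regions.

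Parp1, the main poly-ADP-ribose polymerase, had 11 regions on chromosome 1, of which 2 were tested. Its start region, 180568776 to 180569158, contains the E-box at -49 and held 84.9% of the signal of the gene. It had 329, 395, 301 and 216 in vehicle and 399, 443, 282 and 329.9 in iMSBmal1KO. The groups overlapped, with a log2 change of 0.24 ± 0.22 (SE, with an adjusted p of 0.719 by limma), or 0.08 without vehicle replicate 4. In the sum over all regions the log2 change was 0.19 ± 0.18 (SE, with an adjusted p of 0.693 by limma) and 0.07 without vehicle replicate 4.

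Cd38, an NAD hydrolase known mainly from leukocytes, had 13 weak regions on chromosome 5. Its sum was 66.1, 51.4, 50.2 and 81.3 in vehicle and 73.2, 45.2, 82.3 and 50.2 in iMSBmal1KO. The groups overlapped fully, with a log2 change of -0.01 ± 0.24 (SE, with an adjusted p of 0.996 by limma), whose sign turned in 5 of 18 other settings and which was 0.13 without vehicle replicate 4. The only tested region, in intron 1 at 43894329 to 43894473, had 20.3, 24.7, 16.5 and 6.25 in vehicle and 36.0, 12.5, 26.2 and 12.5 in iMSBmal1KO, again with overlap. The log2 change there was 0.35 ± 0.42 (SE, with an adjusted p of 0.789 by limma), or -0.03 without vehicle replicate 4. None of the endothelial, fibro-adipogenic and satellite cell markers passed the threshold, and the myeloid markers were too weak to be tested. The 3 of 6 myeloid marker genes with any region within 1000 bp of a start (Ptprc, Csf1r and Lyz2) summed to 12.5 to 18.5 in vehicle and 16.3 to 19.1 in iMSBmal1KO, while Adgre1, Cd68 and Itgam had none. The 4 endothelial markers summed to 80.1 to 109 and 86.6 to 123, the 3 fibro-adipogenic markers to 231 to 369 and 262 to 377, and the 3 satellite cell markers to 419 to 543 and 409 to 499. In bulk tissue fewer nuclei of a type and less open chromatin per nucleus cannot be told apart. The part of other cell types in the Cd38 values was not tested.

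Nnt, the mitochondrial transhydrogenase, had 18 regions on chromosome 13, of which 6 were tested, all with a positive change, or 5 of 6 without vehicle replicate 4. Its strongest region lay 68797 bp from the listed start, at coding exon 13, 119339804 to 119340201, with 291, 249, 311 and 169 in vehicle and 252, 306, 267 and 242 in iMSBmal1KO. The groups overlapped there, and the log2 change was 0.10 ± 0.21 (SE, with an adjusted p of 0.895 by limma), or -0.09 without vehicle replicate 4. Upstream of the start, at 119409372 to 119409679, the signal was 43.7, 57.5, 33.0 and 9.38 in vehicle and 59.1, 67.7, 62.0 and 74.0 in iMSBmal1KO. These groups did not overlap, although vehicle replicate 2 came close to the lowest iMSBmal1KO library. This gave a log2 change of 1.10 ± 0.42 (SE, with an adjusted p of 0.497 by limma), and it was 0.57 without vehicle replicate 4, which held 3 reads there. Over all Nnt regions the sum changed by 0.24 ± 0.16 on the log2 scale (SE, with an adjusted p of 0.607 by limma), or by 0.11 without vehicle replicate 4. Within 1000 bp of starts the Nnt sum averaged 174 ± 46.4 in vehicle against 241 ± 34.7 in iMSBmal1KO (SD, n = 4 each), giving a log2 change of 0.49 ± 0.20 (SE, with an adjusted p of 0.468 by limma) that fell to 0.35 without vehicle replicate 4.

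Beyond the 10 genes, 44 other genes of NAD metabolism were listed, of which 42 had regions and 36 had tested ones, 281 regions in all. Of these 1 passed the adjusted threshold, lower in iMSBmal1KO, and 0 were higher, where 0.0881% of all tested regions passed. The median log2 change over the 281 regions was 0.01, against 0.12 over all tested regions. Groups were apart with iMSBmal1KO higher at 7 regions (2.49%) and lower at 12 (4.27%), against 3.62% and 1.87% of all tested regions. Other sirtuins (Sirt2, Sirt4, Sirt5 and Sirt7) had 22 tested regions with a median of 0.24, and genes of synthesis and salvage 48 with a median of -0.01. Genes of the route from tryptophan had 10 with 0.14. Other consumers such as the tankyrases had 170 with 0.01, in a group that also held Macrod1 and Macrod2, which do not consume NAD. The 20 tested regions of the NAD kinases and the mitochondrial NAD carrier had a median of 0.04, and the 11 of genes that clear nicotinamide -0.13. Among the gene sums of this list 0 of 42 passed, where 0.13% of all gene sums tested did. The medians of this list and its counts of regions apart are for all 8 libraries and the deposited scaling. They were not computed without vehicle replicate 4 or under other scalings, so their contrast with the background was not tested there.

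The single region past the threshold lay in Nmnat2, the NMNAT enzyme of the Golgi and of axons, in intron 2 on chromosome 1, at 153065425 to 153065601. Its signal was 66.1, 56.5, 60.4 and 50.03 in vehicle and 22.7, 17.6, 19.1 and 26.3 in iMSBmal1KO, from 16 to 95 reads per library. All iMSBmal1KO libraries lay far below all vehicle libraries. On the log2 scale it fell by 1.41 ± 0.26 (SE), and its adjusted p was 0.0399 by limma. Among 18 other settings the adjusted p ranged between 0.00542 and 0.194 by limma or limma-voom, and 8 of them did not keep the call. These 8 were the fit with the replicate number as a block (adjusted p of 0.0728 by limma) and the fits without any 1 library other than vehicle replicate 4. The log2 change itself lay between -1.56 and -1.26 in all 18. Nmnat2 had 64 regions, of which 25 were tested, 17 of them negative, with a median of -0.07, and no other region of the gene passed.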

How the data were processed

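ATAC-seq of gastrocnemius nuclei was deposited as 1 table of 489637 regions with a signal for each of 8 libraries and gene annotation. Per the submitters' processing notes, Partek, Bowtie2, MACS2 and DESeq2 were used and the builds mm10 and GRCm39 are named, with no roles. The removal of duplicates, the shift for the transposase and whether peaks were pooled are not given in the sources used here. By name, 82.7% of the genes matched RefSeq of GRCm38.p6, and 99.9% of these overlapped it in position, so promoter sequences of that build were used. Coordinates are as the table lists them, counted from 1.

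The deposited signal was never negative. In each library 98.3% to 99.8% of its non-zero values were whole multiples of 1 step, within 0.02 reads, and signal divided by the step is called read equivalents here. As some values were not whole, no count test was used. Depth was 4.31 M to 29.5 M read equivalents, and the number of reads at weak regions limits their precision.

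The plan allowed for counts or a scaled signal, and the latter test applied: limma-trend with robust moderation on log2(signal + 1), group as the only term, all 8 libraries (limma 3.58.1, R 4.3.3). The filter asked for 0.762 read equivalents per M in 4 or more libraries and for 15 over all libraries, for regions and for sums per gene. P-values were adjusted by Benjamini-Hochberg over all tested regions or genes, with a threshold of 0.05. The test was checked on simulated data. The labels do not say that libraries come from separate mice, so p-values measure the spread between these samples. Named were all 10 genes, for each the region with the most signal and the one with the smallest p, any region past the threshold, other NAD genes with a region past it, and the 3 genes most like Nampt. Other regions were named after their values were seen: those without overlap, those with an E-box, and those at starts under a neighbour's name. Members and lists were chosen with earlier results of these data known. Alternatives were other scalings, filters, pseudocounts, limma-voom, the replicate number as a block, other start windows and leaving out each library. Python 3.11.15 with pandas 2.3.3 summed the regions and matplotlib 3.10.9 drew the plots. A further list of marker genes is not reported here.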

Additional observations from a re-analysis of the deposited data

Results flagged for a closer look

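In 54 groups of 4 values examined, 2 had 1 library farther from the rest than Dixon's 95% limit allows, and chance would give 2.7. The summed signal of Nnt was 356 in vehicle replicate 4, while the other 3 vehicle libraries had 515 to 528. This is the shallowest library, with the most mitochondrial reads, and the part of these in the result was not tested. The Nmnat1 region that starts at 149486003 had 8.78 in iMSBmal1KO replicate 4, while the other 3 iMSBmal1KO libraries had 14.1 to 14.3, at a region with 1 to 33 reads per library.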

How the results depend on the processing

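0 regions of the 10 genes, 0 of their gene sums and 0 of their start sums passed the threshold under any of the 18 alternatives, nor did start sums over the listed start sections or within 2000 bp. Over the genome the 110 calls became 279 with median-of-ratios factors, 277 with the trimmed mean of M values, 342 with cyclic loess, 342 with limma-voom and 195 without a filter. They were 32 to 281 when 1 library was left out: 32 without vehicle replicate 1, 41 without vehicle replicate 3, 281 without vehicle replicate 4, and 43, 39 and 57 without iMSBmal1KO replicates 2, 3 and 4. Of 26 single log2 changes 19 kept their sign throughout. With cyclic loess the Sirt6 start region was -0.00905 and the Nnt exon 13 region -0.0497, and the latter was -0.0192 with median-of-ratios factors and -0.0184 with the trimmed mean. The Cd38 sum was 0.0935 with limma-voom. When 1 library was left out, the Nampt start region lay between -0.0629 and 0.312, the Nampt sum between -0.0336 and 0.2597, the Cd38 intron region between -0.0337 and 0.574 and the Nnt exon 13 region between -0.0863 and 0.206, each negative only without vehicle replicate 4. The Sirt6 sum lay between -0.0786 and 0.0203, positive without vehicle replicate 1 or iMSBmal1KO replicate 3, and the Cd38 sum between -0.149 and 0.135, positive without vehicle replicate 1 or 4 or iMSBmal1KO replicate 2 or 4. The cause was not tested.

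The labels number the libraries 1 to 4 in each group. Deviations from the group means of same-numbered libraries correlated at -0.06, 0.14, 0.02 and 0.02, and those of differently numbered ones at -0.19 to 0.25. No pairing by number was seen, but 4 libraries per group of unequal depth cannot exclude one. With the replicate number as a block, 100 regions were called over the genome and 0 of the 10 genes. The scaling moved the median of all tested regions from 0.12 to 0.01 under median-of-ratios factors, the trimmed mean and cyclic loess. The edgeR test planned on read equivalents was not run, because not all values were whole. Depth limits the weak regions: 117 of 171 could not be tested, none of them above a mean signal of 12.1.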
